A study of Mus musculus with 2 samples.

Results

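G protein-coupled receptors through which hormones, nutrients, nerves and local signals act on pancreatic islets were described in mice that overexpress a pair of microRNAs. The set was a list of 39 receptor genes chosen by name, with earlier results of these data known. It covered incretin, fatty acid, somatostatin, adrenergic, muscarinic, purine and peptide receptors. A gene entered through probe sets whose only annotated symbol was that gene. Of the 39 receptors 32 had such a probe set, 54 probe sets in all, among 18193 genes measured this way on the array. Ffar1, Ffar3, Gpr119, Adra2a, Adora1, Adora2a and F2rl1 had none and were not analysed here. Of the 32 measured receptors 21 reached 5.76, the median log2 signal of the arrays, in at least 1 sample, and 11 did not.

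The study profiled islet RNA of male mice aged 6 weeks on Affymetrix expression arrays, with 1 array for each of 2 samples. One sample is labelled as overexpressing miR-141 and miR-200c, and its title carries the word Ripmir. The other is labelled as a C57Bl6 control. No agent was given to either after islet isolation. The labels name neither the promoter of the transgene nor the number of mice in a sample, and they do not say whether the controls were littermates. No probe set was annotated to either microRNA, so their overexpression was not checked here.

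These receptors span the plasma membrane, and most act through G proteins. Lgr4 and Gpr158 were not assigned to a G protein class here. Those coupled to Gs raise cyclic AMP and amplify insulin release in beta cells. Those coupled to Gi lower cyclic AMP and restrain secretion, and those coupled to Gq activate phospholipase C, which releases calcium from internal stores. Islet endocrine cells carry members of each kind, and acinar, vascular, nerve and immune cells of the pancreas carry some of the same receptors.

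The mature 3p strands of the overexpressed microRNAs are shown because their seeds, bases 2 to 8, set which messenger RNAs they can pair with. The sequences are from RefSeq (GRCm38.p6), 5′ to 3′, with the seed in capitals. Both lie on the minus strand of chromosome 6, miR-141-3p at chr6:124717917-124717938 and miR-200c-3p at chr6:124718324-124718346.
miR-141-3p: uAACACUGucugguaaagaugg
miR-200c-3p: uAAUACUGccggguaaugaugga
The seeds share 6 of 7 bases and differ by C4U, counted from the 5′ end of miR-141-3p, so they form separate seed groups. No receptor transcript was searched for seed matches here.

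All values below are log2 expression values from the RMA method, and each difference is transgenic minus control. With n = 1 per genotype there was no replicate error, no test and no p-value, and "higher" and "lower" compare these samples only. Values of different genes were not compared with each other, because probe sets differ in how strongly they bind. A receptor was counted as higher or lower when the difference reached 1, which is 2-fold. The samples are whole islets, so fewer cells of a type and less RNA per cell cannot be told apart.

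Markers of islet cells were high on the scale in both samples. The beta cell markers averaged 12.50 in transgenic and 12.58 in control islets over the 8 of 10 that were measured. Although the labels give beta cells as the source, Gcg, the glucagon gene, read 14.13 and 14.19, Sst, the somatostatin gene, 13.99 and 13.99, and the acinar enzyme gene Cpa1 14.17 and 14.04. Markers of macrophages differed, with a median difference of 0.84 over the 16 of 18 at the median signal, 15 of them positive, and a log2 summed level of 13.52 against 12.85. For stellate cell and fibroblast markers the median was 0.77 over 12 of 14, 10 of them positive, and the summed levels were 13.21 against 12.48.

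**Figure D1:**
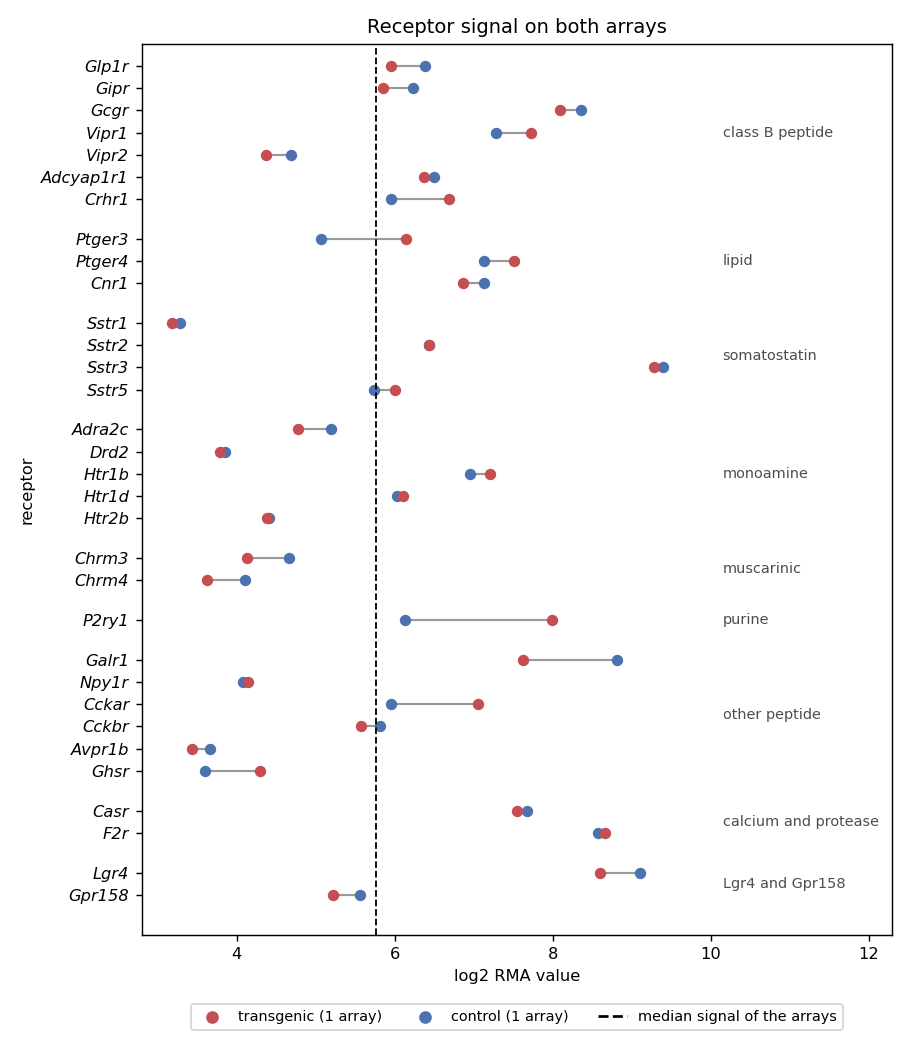
Log2 RMA values (x axis) of the 32 measured receptors (y axis, grouped by ligand type) in the transgenic (red) and control (blue) sample, 1 array each, with the median signal of 5.76 as a dashed line. The grey segments are longest for P2ry1, from 6.13 to 7.99, and Galr1, from 8.82 to 7.63.

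Of the 21 receptors at the median signal 17 differed by less than 2-fold between the samples, and 4 by more. P2ry1, Cckar and Ptger3 were higher in the transgenic sample and Galr1 was lower. Among all 12143 genes at the median signal, 2.51% passed this rule on the higher side and 0.511% on the lower side, 3.02% in either direction. For the receptors this was 3 and 1 of 21, or 19% in all, a share that rests on 4 genes. One of the 4, Ptger3, reached the median signal only in the transgenic sample, where it was higher. With both samples required to reach it, 2 receptors were higher and 1 lower of 18, beside 213 and 49 of 11487 genes. The list was also chosen with earlier results of these data known, so the share does not show an excess among receptors. The median difference of the 21 receptors was 0.010, a value whose sign depends on the processing, beside 0.029 for all genes at the median signal, with 11 receptors positive and 10 negative, where 54.2% of all genes were positive. A difference under 0.3 in size was found for 11 of the 21, or 52.4%, beside 67.6% of all genes. Of these receptors 18 were at the median signal in both samples. Ptger3 and Sstr5 got there in the transgenic sample alone, and Cckbr in the control alone.

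P2ry1 encodes a receptor for ADP, a nucleotide released with granule contents and by platelets, that signals through Gq. It read 7.99 in transgenic and 6.13 in control islets, a difference of 1.86 or 3.63-fold. Both values were above the median signal. The difference held rank 42 from the top among the 12143 genes. P2ry1 had 1 probe set, so no second reading was available. Vascular, immune and nerve cells also carry this receptor. Macrophage and stellate cell markers were higher in the same sample by medians of 0.84 and 0.77. The median was 0.60 over 4 markers of Schwann cells and neurons, all positive, 0.06 for endothelial markers and -0.05 for lymphocyte markers. The part of these cells in the difference of P2ry1 was not tested.

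Cckar encodes the receptor for cholecystokinin, the gut hormone that drives enzyme secretion by acinar cells and is also found on islet cells. Its 1 probe set read 7.05 in transgenic and 5.96 in control islets, a difference of 1.09 or 2.13-fold. The control value lay just above the median signal. Acinar markers had a median difference of 0.07 over the 10 of 12 measured, with 7 positive, a range from -2.23 for the protease gene Ctrc to 0.26, and log2 summed levels of 16.65 and 16.56. The related Cckbr, which also binds gastrin, stood at 5.58 in transgenic and 5.82 in control islets, a difference of -0.24. Of the pair, Cckar passed 2-fold and Cckbr differed by 1.18-fold in the opposite direction, close to the median signal. The other Cckbr probe set, below that signal in both samples at 4.39 and 4.23, gave 0.16, so the direction of Cckbr depends on the probe set.

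Galr1 encodes a receptor for galanin, a neuropeptide that inhibits insulin release through Gi. It was the receptor furthest lower, at 7.63 in transgenic and 8.82 in control islets, a difference of -1.19 or 2.28-fold. The difference held rank 25 from the bottom among all genes at the median signal. Galr1 had 3 probe sets. The second read 5.99 and 6.34, a difference of -0.35 in the same direction, and the third read 4.36 and 3.89, a difference of 0.47 with both values below the median signal. Averaged over its 3 probe sets Galr1 stood at -0.36, short of 2-fold.

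Ptger3 encodes a prostaglandin E2 receptor that lowers cyclic AMP and restrains insulin release. It read 6.14 in transgenic and 5.07 in control islets, a difference of 1.07 or 2.10-fold. The control value lay below the median signal, so the array's background limits this fold. Its other probe set was below that signal in both samples, at 3.83 and 3.74. Ptger4, a prostaglandin E2 receptor that raises cyclic AMP, stood at 7.51 and 7.13, a difference of 0.38. The other lipid receptor measured, the cannabinoid receptor gene Cnr1, was at 6.86 and 7.14, a difference of -0.27.

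**Figure D2:**
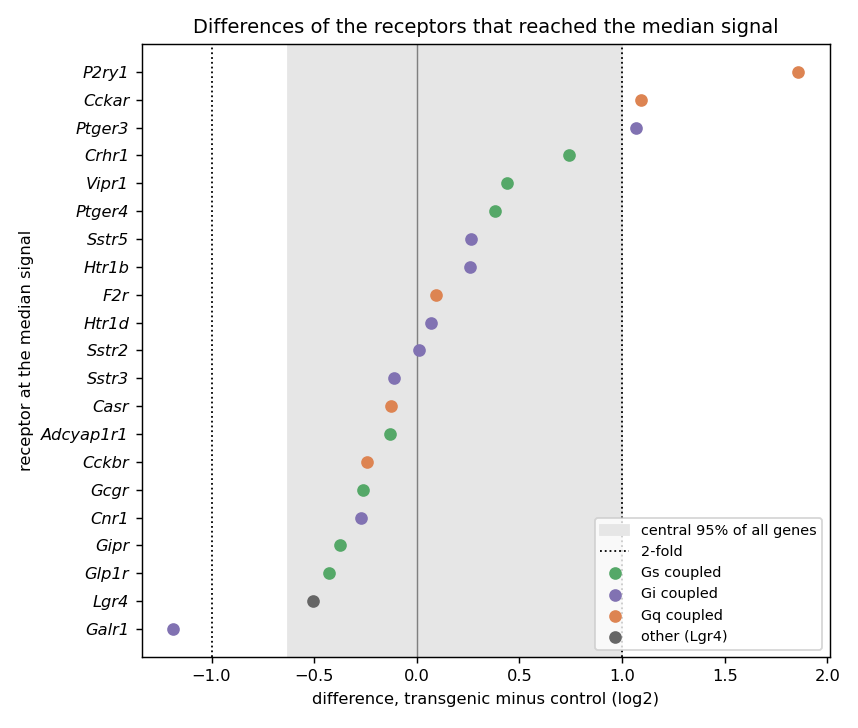
Difference between the samples (x axis, transgenic minus control, log2) of the 21 receptors at the median signal (y axis, in order). Colours give the G protein each mainly couples to, with Lgr4 as other. The grey band holds the central 95% of all genes (-0.63 to 1.0) and dotted lines mark 2-fold. P2ry1 at 1.86, Cckar, Ptger3 and Galr1 at -1.19 lie outside the dotted lines, and the other 17 run from -0.51 to 0.74.

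The class B receptors bind peptide hormones and raise cyclic AMP, and the incretin receptors that potentiate insulin release after a meal belong to them. None of the 6 at the median signal differed 2-fold, and their median difference was -0.20. Glp1r, the target of the GLP-1 drugs for diabetes, read 5.95 in transgenic and 6.38 in control islets, a difference of -0.43. Gipr, the receptor for the incretin GIP, read 5.85 and 6.23, a difference of -0.38. Gcgr, the glucagon receptor gene, read 8.09 and 8.35, a difference of -0.26. All 3 receptors of the incretin and glucagon peptides thus had negative differences, of 1.35-fold at most, and Glp1r and Gipr were close to the median signal.

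The receptors for the neuropeptides VIP and PACAP did not share a direction. Vipr1 read 7.72 in transgenic and 7.28 in control islets, a difference of 0.44. Vipr2 was below the median signal in both, at 4.37 and 4.69. Adcyap1r1, the PACAP-selective receptor gene, stood at 6.37 and 6.50, a difference of -0.13, while its second probe set at the median signal gave 0.15. Crhr1, the receptor for corticotropin-releasing hormone, was next below the 2-fold line at 6.69 and 5.95, a difference of 0.74 or 1.67-fold. Its other probe set gave the opposite sign, -0.64, with both values below the median signal, and the mean of both probe sets was 0.05. With a 1.5-fold rule Crhr1 joined the higher receptors, which were then 4 of 21 beside 7.73% of all genes, and Galr1 stayed the only lower one beside 3.14%.

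Somatostatin receptors, through which delta cells restrain beta and alpha cells, were close to equal in the samples. Sstr2 read 6.44 in transgenic and 6.43 in control islets, a difference of 0.01. Sstr3 stood at 9.28 and 9.39, a difference of -0.11, and its second probe set, below the median signal in both samples, at -0.78. Sstr5 was at 6.01 and 5.74, a difference of 0.26, the control value lying just under the median signal. Sstr1 was far below that signal, at 3.18 and 3.29. The widest difference among the 3 at the median signal was that of Sstr5.

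Among receptors for monoamines, the serotonin receptors of the Gi-coupled type were the ones at the median signal. Htr1b read 7.21 in transgenic and 6.95 in control islets, a difference of 0.26. Its other probe set, below the median signal in both samples, gave the opposite sign, -0.21. Htr1d read 6.10 and 6.04, a difference of 0.07. Its other probe sets, also below that signal in both samples, gave -0.52 and -0.12. Htr2b, the Gq-coupled serotonin receptor gene that rises in islets in pregnancy, was below the signal at 4.38 and 4.42. Also below it were Adra2c, an alpha-2 adrenergic receptor gene, at 4.77 and 5.19, and Drd2, a dopamine receptor gene, at 3.78 and 3.85.

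Muscarinic receptors carry the acetylcholine signal of the parasympathetic nerves. Chrm3, the Gq-coupled form that enhances insulin release, read 4.13 in transgenic and 4.67 in control islets. Chrm4 read 3.62 and 4.11. Both were below the median signal in both samples, where RMA values do not separate low expression from background.

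The remaining peptide receptors were also under that signal. Npy1r, a receptor for neuropeptide Y, stood at 4.14 in transgenic and 4.08 in control islets. Avpr1b, a vasopressin receptor gene, was at 3.44 and 3.66. Ghsr, the ghrelin receptor gene, read 4.30 and 3.60, the widest positive gap among the receptors below the signal. Differences of the 11 receptors below the signal ran from -0.54 to 0.70 with a median of -0.22. Over the 6050 genes of the array that stayed below it, the central 95% ran from -0.52 to 0.61.

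Sensors of calcium and of proteases were nearly equal. Casr, which detects extracellular calcium, read 7.55 in transgenic and 7.68 in control islets, a difference of -0.13. F2r, the thrombin receptor gene, read 8.67 and 8.57, a difference of 0.09, and its second probe set gave 0.04. Lgr4, a receptor for R-spondins that strengthens Wnt signalling, read 8.60 and 9.11, the most negative difference after Galr1 among the 21 receptors at the median signal, at -0.51 or 1.42-fold. Its other probe set, below the median signal, gave -0.30. Gpr158 was below the median signal in both samples, at 5.22 and 5.56.

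**Figure D3:**
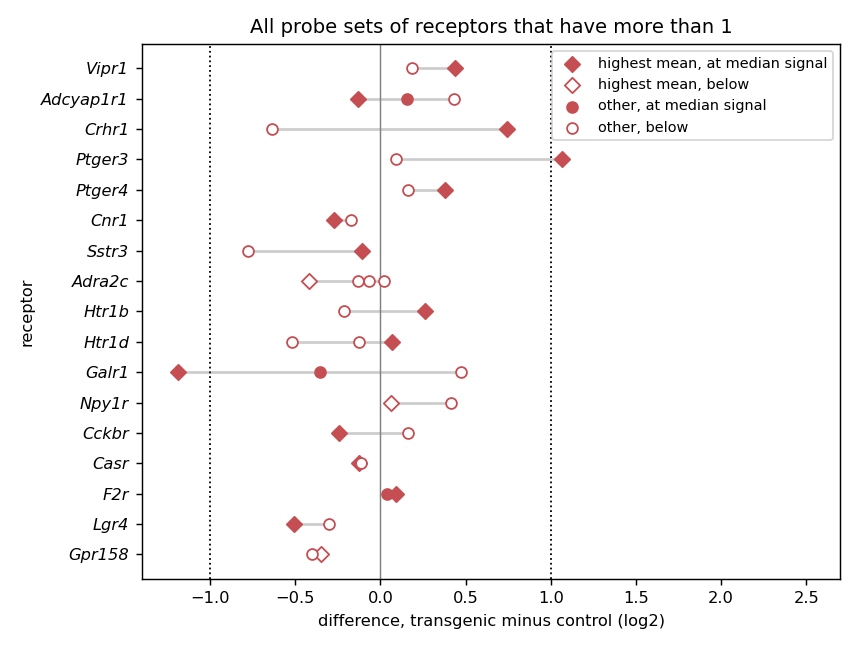
Difference (x axis, transgenic minus control, log2) of every probe set of the 17 receptors that have more than 1 (y axis); diamonds are the probe sets with the highest mean, which stand for the gene, circles the others, and open symbols lie below the median signal in both samples. For Galr1 the probe sets spread from -1.19 to 0.47 and for Crhr1 from -0.64 to 0.74, while those of F2r and Casr lie together.

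Where a receptor had more than 1 probe set, the others were mostly too dim to serve as a second reading. Only 3 further probe sets, of Galr1, Adcyap1r1 and F2r, reached the median signal, and 2 of these had the same sign as the probe set chosen for the gene. Across the array the same sign was found for 66.4% of 8400 such probe sets, with a median gap of 0.19. Such probe sets measure 1 RNA sample again and do not stand for replicates.

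Sorted by the G protein each mainly couples to, the receptors did not divide by direction. Lgr4, at -0.51, was assigned to none of the classes. Of the 7 Gs-coupled receptors at the median signal 3 were positive and 4 negative, with a median of -0.13 and none past 2-fold. Of the 8 Gi-coupled receptors 5 were positive and 3 negative, with a median of 0.04, Ptger3 2-fold higher and Galr1 2-fold lower. Of the 5 Gq-coupled receptors 3 were positive and 2 negative, with a median of 0.09, and P2ry1 and Cckar were 2-fold higher. A difference between these classes was not tested, as there is no replicate.

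Peptides that islets or pancreatic nerves can make, ligands of these receptors or of their relatives, were set beside them. Of 21 ligand genes 11 reached the median signal, 6 positive and 5 negative, with a median of 0.00093, where 54.2% of all genes were positive. Beside 2.51% of all genes at the median signal, 1 ligand gene was 2-fold higher. This was Npy, the neuropeptide Y gene, at 11.87 in transgenic and 10.14 in control islets, 3.30-fold, beside its receptor gene Npy1r below the median signal in both. Gal, the galanin gene, was at 7.82 and 7.13, a difference of 0.69, beside -1.19 for its receptor gene Galr1. Ghrl, the ghrelin gene, was at 7.22 and 6.57, a difference of 0.65, with Ghsr below the signal. Ucn3, a beta cell peptide of the corticotropin-releasing hormone family that acts on Crhr2 rather than Crhr1, was at 10.80 and 11.61, a difference of -0.81. Crhr2, not on the receptor list, was below the signal at 4.37 and 4.46. Cck, the cholecystokinin gene, was below the signal in both samples at 5.07 and 4.25, while Cckar was 2-fold higher. Vip had a difference of -0.27, beside 0.44 for its receptor gene Vipr1. Gal, Ghrl, Cck and Vip were named to set them beside their receptors, after their values were seen.

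Of the 80 genes for signalling proteins downstream of the receptors that were at the median signal, 0 passed 2-fold by the probe set with the highest mean, beside 3.02% of all genes. This count depends on the probe set, since 3 of the genes, Gnas, Prkacb and Rgs5, had another probe set at the median signal past 2-fold. For Prkacb, a catalytic subunit of protein kinase A, the brightest probe set gave -0.14 (11.88 and 12.03) and the other -3.40 (3.79 in transgenic and 7.20 in control islets). Of the G protein subunits 23 of 29 were at the median signal, 13 positive and 10 negative, with a median of 0.02. The widest were Gna14, a Gq-class alpha subunit, at 6.13 in transgenic and 5.21 in control islets, and Gng12, a gamma subunit, at 12.38 and 11.55. The control value of Gna14 lay below the median signal, as did its other probe sets in both samples. Of the adenylyl cyclase, protein kinase A and Epac genes, which make and read cyclic AMP, 22 of 24 were at the signal, 11 in each direction, with a median of 0.05. Adcy7, an adenylyl cyclase of immune and blood cells, stood at 7.08 and 6.14, and Prkar2b, a regulatory subunit of protein kinase A, at 9.30 and 8.39. The median for macrophage markers in the same sample was 0.84, and their part in the value of Adcy7 was not tested.

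Of the phospholipase C and calcium release genes, which serve Gq-coupled receptors, 12 of 15 were at the signal, 7 positive and 5 negative, with a median of 0.10. The widest of them were on the lower side, both protein kinase C genes. Prkca read 9.36 in transgenic and 10.03 in control islets, and Prkcb 9.72 and 10.35. A second probe set at the median signal gave a smaller difference for Prkca, -0.12, and -0.63 for Prkcb. Of the arrestin, receptor kinase, RGS and RAMP genes, which end or shape receptor signals, 23 of 29 were at the signal, 13 positive and 10 negative, with a median of 0.10. Rgs5 read 12.21 and 11.26, with its 3 other probe sets between 0.89 and 1.83, and Rgs8 5.80 and 5.03, the control value of Rgs8 below the median signal. Rgs5 is also a pericyte marker on the stellate cell list, whose median was 0.77.

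**Figure D4:**
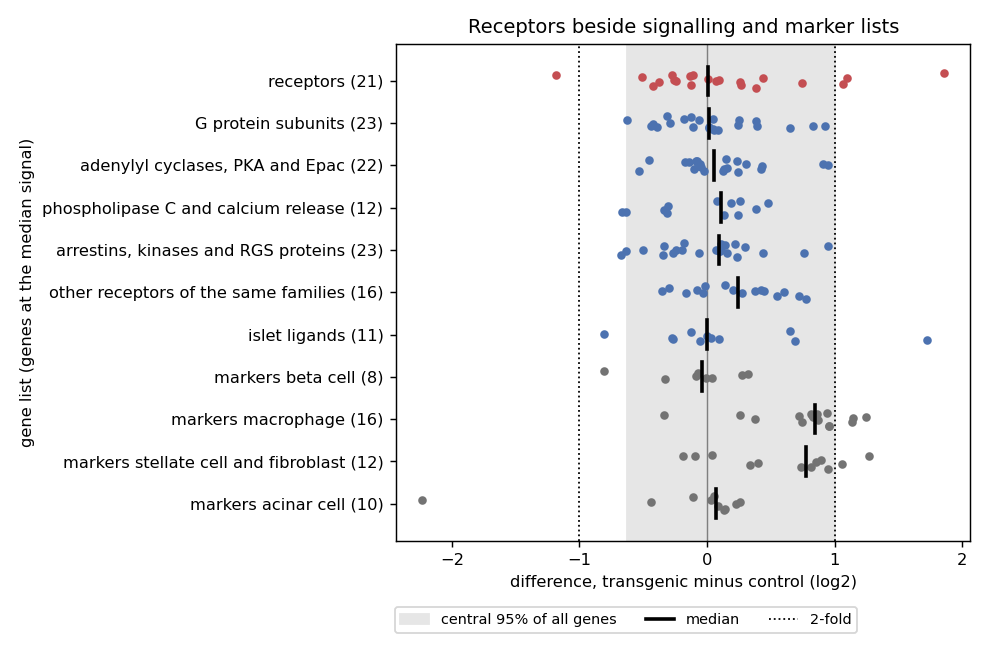
Differences (x axis, transgenic minus control, log2) of single genes at the median signal (points) in the receptor list, the signalling lists and 4 of the marker lists (y axis, number of genes in brackets), with list medians as black bars, the central 95% of all genes in grey and 2-fold as dotted lines. The receptor median of 0.010 lies near 0, and the signalling medians are at most 0.10 except 0.24 for other receptors of the same families. The macrophage and stellate cell medians lie at 0.84 and 0.77.

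Further receptors of the same families that were not on the receptor list were mostly too low to judge. Of 71 such genes 55 were measured and 16 were at the median signal, 10 positive and 6 negative, with a median of 0.24 and none past 2-fold. Adora3, an adenosine receptor gene, read 9.34 in transgenic and 8.57 in control islets. Ffar2, a receptor for short-chain fatty acids that myeloid cells also carry, read 9.46 and 8.74, and its other probe set gave 0.88. The macrophage marker median of 0.84 in the same sample stands beside both, and its part in them was not tested.

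Markers of the remaining cell types were measured as well. Alpha cell markers had a median of -0.02 over 4 genes, delta cell markers 0.26 over 3, the PP cell hormones Ppy and Pyy 0.06, and the epsilon cell marker Ghrl 0.65. Endothelial markers had a median of 0.06 over 10 genes, lymphocyte markers -0.05 over 10, ductal markers 0.29 over 6, and Schwann cell and neuron markers 0.60 over 4. The beta cell marker median was -0.04 over 8 genes, with none past 2-fold. Beside the difference of -1.19 for Galr1, the medians for beta, alpha, delta and PP cell markers ran from -0.04 to 0.26, and the part of any one cell type in it was not tested. Several hormone genes among these markers, such as Gcg, Sst and Ppy, read near the top of the scale, where RMA compresses differences. Single beta cell markers ran from -0.81 for Ucn3 to 0.32 for Pdx1.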

How the data were processed

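The authors deposited a log2 value for each probe set, obtained with RMA in Affymetrix Expression Console per the submitters' processing notes, with no version given. RMA corrects background, equalises the arrays' distributions and compresses differences near the bottom and top of the scale. It gives no detection call, so the median of all values, 5.76, served as the limit.

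Of 45101 probe sets 34945 had 1 gene symbol, of which 34741 were updated through Entrez identifiers (GRCm38.p6 table). A gene took its probe set of highest mean over both samples and was kept when at least 1 value reached the limit. Only probe sets of the array's annotation table were named. The receptors and lists were chosen with earlier results of these data known. Named were every receptor, and of each signalling list the genes past 2-fold and the 2 widest. Gal, Ghrl, Cck, Vip, Crhr2, Prkacb, Gnas, Rgs2 and Rgs16 were named outside this rule. The number of arrays, 1 per group, limits the precision. The computation was tested on simulated data. Python 3.11.15, numpy 2.4.6, pandas 2.3.3 and statsmodels 0.14.6 were used. The 8 alternatives covered probe set choice, limits, a lowess trend (span 0.3), renormalization and a 1.5-fold rule.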

Additional observations from a re-analysis of the deposited data

How the results depend on the processing

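P2ry1 was at least 1.82 under every alternative that was run, and Cckar at least 1.06 under each that kept it; the limit at the 75th percentile of all values left Cckar out. Galr1 passed 2-fold lower except when probe sets were averaged (-0.36), which left 0 receptors lower. With the limit at the 75th percentile 6 receptors remained, 1 of them higher, and their median difference was -0.19. The receptor median was also negative with probe sets averaged (-0.12), with no limit (-0.11), with both arrays at the limit (-0.05) and after renormalization (-0.01), and positive without the _s, _x and _a classes (0.01) and with the trend subtracted (0.02). With no limit 32 receptors counted. Ptger3 was left out when probe sets were averaged, without the _s, _x and _a classes, with the limit at the 75th percentile, and when both arrays had to reach the limit. A 1.5-fold rule added Crhr1, at 0.74, beside 7.73% of all genes higher. Of 119 receptor values under alternatives 3 moved by more than 0.19, the median gap between probe sets of a gene: Galr1, Crhr1 (0.05) and Sstr3 (-0.44), all with probe sets averaged. Many of the 119 could not move. A limit decides which receptors are kept and leaves each difference as it was. Dropping the _s, _x and _a classes changed no difference of a kept receptor, and averaging cannot change a receptor with 1 probe set. The count therefore does not measure stability. Among the values that the alternatives kept, Sstr2 alone changed sign, between -0.01 and 0.02. Averaging kept 15 receptors. It left out Adcyap1r1, Cckbr, Htr1b and Htr1d, whose probe sets differ in sign, so their signs were not examined under averaging. No paired analysis was possible because each group has 1 array.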

Other observations

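Several signalling genes around the receptors had probe sets that did not read alike. The widest gap was that of Prkacb, a catalytic subunit of protein kinase A, between -0.14 and -3.40, where the value of 3.79 in transgenic islets lay below the median signal. Gnas encodes the alpha subunit of Gs, through which the incretin receptors act, and, like Prkacb, was singled out after its values were seen. Its brightest probe set read 13.30 in transgenic and 13.21 in control islets, high on the scale, a difference of 0.09. Another, 1453413_at, read 5.90 and 7.25, a difference of -1.35, and 1 more at the median signal gave -0.31. Which transcripts each probe set of these genes reads was not examined here.

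Other genes, also singled out after seeing their values, had bright probe sets that shared a direction. Prkar2b, a regulatory subunit of protein kinase A, had 3 probe sets at the median signal with differences of 0.58, 0.84 and 0.91. Rgs2, which shortens signals of Gq-coupled receptors, had 3 with differences of -0.67, -0.63 and -0.40. Rgs16, another member of that family, had 2 with differences of 0.44 and 0.88, and a dimmer one below the median signal at -0.24. These values come from 1 RNA sample per genotype and are not replicates.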
